A study of Homo sapiens with 12 samples.

Results

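The comparison described here set ΔCRE against WT MDA-MB-231 cells after 24 h of stimulation, a time at which ETS1 RNA in ΔCRE cells was nearer to the WT level than at 6 h. It held 4 of the 12 libraries of the study, 2 biological replicates of each genotype, all stimulated for 24 h with PMA/Ionomycin. Of the 24331 features of the expression table, 16867 were above 0 in at least 1 of these 4 libraries, and the 11324 with a mean of at least 1 FPKM over the 4 were tested. FPKM expresses abundance as fragments per unit of transcript length and of sequencing depth, so it allows levels of different genes to be set side by side.

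RNA-sequencing in this study covered WT and ΔCRE cells before stimulation (0 h) and at 6 h and 24 h, with 2 replicates per condition. MDA-MB-231 is a human breast cancer cell line of the triple-negative, mesenchymal-like kind. PMA is a phorbol ester that activates protein kinase C, and Ionomycin is an ionophore that raises intracellular calcium. ΔCRE cells are MDA-MB-231 cells in which part of the core-regulatory element (CRE) of the ETS1 promoter was removed with Cas9 and a pair of guide RNAs. WT cells carry the intact element, and the groups compared at 24 h and at 6 h all received PMA/Ionomycin. Libraries of 0 h, without stimulation, are not in the main fit. They enter the early response of WT cells, the plot of FPKM over time and some alternative fits. Values of the library labelled ΔCRE 0 h replicate 1 are also given. Clones were screened after the transfection, and how many clones the ΔCRE libraries come from is not stated, so an effect of the deletion and a difference between clones cannot be told apart in any result below.

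ETS1 is a transcription factor of the ETS family, whose members bind DNA at a GGAA core and often act together with AP-1. Its known targets include matrix proteases, angiogenic receptors and adhesion molecules, and its RNA is induced transiently by signals through protein kinase C and calcium. Its level therefore differs with the time after such a stimulus, and the RNA of its targets can differ at times when that of ETS1 no longer does.

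The stretch at the positions given for the deletion is shown, since the deletion is the only change introduced on purpose between the groups. The study places it between positions -540 and -270 from the transcription start without naming the transcript. Counted from the start at position 128392205 of chromosome 11, where 2 annotated transcripts of ETS1 begin, these positions span 271 bases. They lie at chr11:128392475-128392745 on the minus strand of GRCh37 (the same build as hg19). The guide RNAs of the study were not located, so whether the real deletion has these ends was not checked. The capitals mark the 1 match of these bases to TTGGAA, which the methods of the study give as the NF-κB site, from -436 to -431. No match to TTTTAA, given there as the NFAT site, was found on either strand of these letters. The study states that the deletion takes out binding sites of both NFAT and NF-κB. Only these exact strings were searched, so other forms of either site are not marked and their absence is not shown.
ETS1 -540 to -270: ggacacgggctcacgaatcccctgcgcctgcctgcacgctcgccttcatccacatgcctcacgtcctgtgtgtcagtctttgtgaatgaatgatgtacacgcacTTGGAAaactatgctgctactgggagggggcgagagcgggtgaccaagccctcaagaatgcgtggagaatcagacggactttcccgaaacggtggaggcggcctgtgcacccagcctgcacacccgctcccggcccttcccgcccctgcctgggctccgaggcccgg

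ETS1 itself (chr11:128328656-128457453 of hg19, in the files) was at 36.2 and 39.7 FPKM in the WT libraries at 24 h and at 29.3 and 30.7 FPKM in the ΔCRE libraries. The groups did not overlap, and the ΔCRE mean was 79.0% of the WT mean. On the log2(FPKM + 1) scale the difference was -0.33 (SE 0.0616, n = 2 per group, limma, adjusted p = 0.0178). The call rested on the libraries used: with only the 4 libraries of 24 h in the fit the adjusted p was 0.0768, and it was 0.109 without WT 24 h replicate 2, 0.0873 without ΔCRE 24 h replicate 1 and 0.0703 without ΔCRE 24 h replicate 2. At 6 h, by contrast, ETS1 was at 139 and 145 FPKM in WT cells and at 62.8 and 62.2 FPKM in ΔCRE cells, a log2 difference of -1.17 (limma, adjusted p = 3.49e-05). Among the 16 members of the ETS family that were tested, ETS1 was the only member called at 24 h (6.25%), beside 6.84% of all features. Another member, not called, had a lower log2 difference of -0.35. At an unadjusted p under 0.05 (limma) 4 members were higher and 4 lower, beside 2556 of all 11324 features in either direction. ETV4, ELK3 and ERF, the most abundant members not called, had log2 differences of -0.22, 0.01 and -0.11.

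Replicates were close to each other, and markers of the cell line were present. Sums of FPKM at 24 h ran from 578630 to 609038, and r between replicates across the tested features was 0.984 in WT and 0.978 in ΔCRE cells (a description, since genes are not independent replicates). All 7 markers of the mesenchymal-like state were above 1 FPKM, with summed levels of 2178 and 2182 FPKM in WT and 2240 and 2319 FPKM in ΔCRE cells. Of the 8 luminal epithelial markers, 5 had a mean of at least 1 FPKM over the 4 libraries. Among the others, CDH1 (E-cadherin) was listed at 0 in the 4 libraries and ESR1 (the estrogen receptor) did not exceed 0.0088 FPKM. Summed luminal markers were lower in ΔCRE libraries (76.9 and 88.9 FPKM) than in WT libraries (106 and 114 FPKM), and summed fibroblast markers were between 2.89 and 3.25 FPKM. Summed immune markers stayed between 0.346 and 0.783 FPKM, and intestinal markers stayed between 0.106 and 0.446 FPKM. The intestinal sum was 10499 FPKM in a library of unstimulated cells, labelled ΔCRE 0 h replicate 1, which was left out of the fit. FPKM does not keep read numbers, so the depth behind each value is unknown.

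At 24 h 774 features (6.84%) differed at an adjusted p under 0.05 (limma, Benjamini-Hochberg), 297 higher (2.62%) and 477 lower (4.21%) in ΔCRE cells. Their median absolute log2 difference was 0.41, and 43 of them differed at least 2-fold, 13 higher and 30 lower. All 774 had ΔCRE libraries on a single side of both WT libraries, as did 51.9% of all features tested. The count depended on each library of 24 h: it was 184 without WT 24 h replicate 1, 273 without WT 24 h replicate 2, 357 without ΔCRE 24 h replicate 1 and 208 without ΔCRE 24 h replicate 2. Rescaled to TPM, where each library sums to the same total, 219 features were higher and 569 lower, so the higher share of the calls was 27.8% in place of 38.4%. Of 97 called genes that are named or belong to the lists, 60 to 73 kept their side of the threshold when 1 of these libraries was left out. Only 2 libraries stood on each side. The p-values rest on the spread between replicate libraries, pooled over the 8 libraries of 6 h and 24 h and moderated across features. With only the 4 libraries of 24 h in the fit, 324 features were called.

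Of the 30 features that were at least 2-fold lower, the 15 with the lowest log2 difference are named here, small RNA entries left aside. CDH11, a cadherin of mesenchymal cells, was at 20.7 and 22.2 FPKM in WT and at 1.75 and 1.93 FPKM in ΔCRE libraries (log2 difference -2.98, SE 0.0838, limma, adjusted p = 2.66e-06). NEO1, the receptor neogenin that binds netrins and repulsive guidance molecules, was at 4.11 and 4.29 FPKM in WT and at 0.128 and 0.0926 FPKM in ΔCRE libraries (-2.23, SE 0.0981). CHRDL1, a secreted antagonist of bone morphogenetic proteins, was at 2.25 and 2.48 FPKM in WT libraries, listed at 0 in ΔCRE replicate 1 and at 0.0130 FPKM in replicate 2. The ΔCRE cells thus held almost no NEO1 or CHRDL1 RNA, and the same was seen at 6 h, where CHRDL1 was listed at 0 in both ΔCRE libraries. NELL2, a secreted ligand with a role in neuronal guidance, fell from 2.71 and 2.74 FPKM to 0.146 and 0.126 FPKM. FZD8, a Frizzled receptor for Wnt ligands, fell from 8.95 and 8.68 FPKM to 2.88 and 2.80 FPKM. KISS1, whose product kisspeptin was found as a suppressor of metastasis, fell from 45.9 and 43.2 FPKM to 10.6 and 8.43 FPKM (-2.12, SE 0.107, limma, adjusted p = 3.6e-05). The rule that picked the 15 genes required groups that do not overlap, so their separation is not a further result.

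CST1 and CST4, secreted cystatins that inhibit cysteine proteases, were also among the 15. CST1 was at 69.0 and 63.1 FPKM in WT and at 7.14 and 7.68 FPKM in ΔCRE cells, and CST4 at 30.8 and 29.9 against 10.4 and 9.82 FPKM. CST2, chosen after its values were seen, was at 8.03 and 8.16 against 3.97 and 2.89 FPKM. These paralogs lie beside each other on chromosome 20 and have similar sequences, so how fragments were divided among them is uncertain. The other genes among the 15 largest decreases were TMEM71 (a membrane protein), KRTAP2-3 (a hair keratin-associated protein), PLCB2 (a phospholipase C that acts downstream of G proteins), the pseudogene TEKT4P2, the chemokine CXCL1, C21orf7 and the tight junction gene CLDN7, with log2 differences from -1.52 to -1.16. CLDN7 lies in a segment of chromosome 17 described further on, in which many genes were lower.

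The 15 called genes with the highest log2 difference ranged from 0.84 to 2.62. IGFN1, an immunoglobulin-like protein of muscle, was at 1.08 and 1.30 FPKM in WT and at 12.1 and 12.8 FPKM in ΔCRE cells, the largest called increase outside the small RNA entries (log2 difference 2.62, SE 0.0903, limma, adjusted p = 4.71e-06). UCN2, a peptide ligand of the corticotropin-releasing hormone receptors, rose from 8.50 and 8.41 FPKM to 36.4 and 33.9 FPKM. COL7A1, which encodes the collagen of anchoring fibrils and is the neighbour of UCN2 on chromosome 3, rose from 1.69 and 1.68 FPKM to 5.03 and 4.42 FPKM. Groups that do not overlap were required of both neighbours by the rule that named them. SRGN, the secretory granule proteoglycan serglycin, rose from 48.7 and 49.0 FPKM to 155 and 142 FPKM (1.58, SE 0.0617, limma, adjusted p = 9.95e-06). It lies in the part of chromosome 10 in which most called genes were higher.

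INHBA, which encodes the subunit of activin A, was at 10.6 and 10.3 FPKM in WT and at 28.3 and 25.9 FPKM in ΔCRE cells (1.29, SE 0.0619, limma, adjusted p = 2.94e-05). EREG (epiregulin), a ligand of the EGF receptor, was at 20.7 and 21.2 against 49.4 and 48.2 FPKM. IL11, a cytokine of the IL6 family, was at 90.5 and 84.1 against 180 and 164 FPKM (0.97, SE 0.0671, limma, adjusted p = 0.000221). Each of these ligands was thus at 1.97 to 2.59 times its WT level. AREG (amphiregulin), which lies next to EREG and was chosen after its values were seen, was at 4.65 and 4.34 against 8.82 and 7.28 FPKM (0.72, limma, adjusted p = 0.0174). The remaining genes of the 15 largest increases were AADAC and LOC201651 (an esterase gene and its relative, reported over the same interval of chromosome 3, so that their fragments may not be separable), the annexin ANXA10, the lipid phosphatase PPAPDC1A, the chemokine CCL26, the water and glycerol channel AQP3, the glutathione transferase GSTM1 (with near-identical paralogs) and the phospholipase PLA2G3. CCL26 varied most, with 1.51 and 1.22 FPKM in WT and 2.89 and 5.14 FPKM in ΔCRE cells, and was called in 5 of 17 alternative fits, against 11 of 17 for PLA2G3 and at least 16 of the 17 or 18 fits run for each of the other 13. PPAPDC1A lies farther along chromosome 10 than SRGN, in a part in which most called genes were lower. The calls also held 4 entries of small nucleolar RNAs, SNORA6, SNORA10, SNORA18 and SNORA27, named after their values were seen. SNORA27 was listed at 0 in both WT libraries and at 24.7 and 10.7 FPKM in ΔCRE libraries, and SNORA6 was at 7.11 and 15.2 FPKM in WT and listed at 0 in both ΔCRE libraries.

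Promoter letters of a few of these genes are shown, to give the letters near the start of genes that differed, with the matches to ETS and AP-1 motifs. Of the 30 genes and ENG, 20 had a promoter in the RefSeq table (build GRCh38.p14), and the 250 bases before the start were searched on both strands for GGAAGT, an ETS core, and for TGACTCA, an AP-1 site. GGAAGT was found in 4 of the 20 (CHRDL1, EREG, GSTM1 and ENG) and TGACTCA in 2 (UCN2 and IL11). Of all 35116 promoters of that table, 19.5% held GGAAGT and 4.20% held TGACTCA in the same window. These shares are a description of the table, and no comparison with the 20 named genes is drawn from them. The sequences below are written on the strand of the gene, with the match on either strand in capitals, and no match overlapped another. CHRDL1 is at chrX:110795818-110796067 (minus strand), ENG at chr9:127854659-127854908 (minus strand), EREG at chr4:74364895-74365144 (plus strand), UCN2 at chr3:48563782-48564031 (minus strand) and IL11 at chr19:55370464-55370713 (minus strand).
CHRDL1: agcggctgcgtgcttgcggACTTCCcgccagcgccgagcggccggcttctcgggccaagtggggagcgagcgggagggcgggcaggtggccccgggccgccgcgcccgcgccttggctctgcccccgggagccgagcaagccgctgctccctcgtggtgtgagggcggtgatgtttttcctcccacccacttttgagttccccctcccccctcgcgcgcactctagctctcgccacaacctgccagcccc
ENG: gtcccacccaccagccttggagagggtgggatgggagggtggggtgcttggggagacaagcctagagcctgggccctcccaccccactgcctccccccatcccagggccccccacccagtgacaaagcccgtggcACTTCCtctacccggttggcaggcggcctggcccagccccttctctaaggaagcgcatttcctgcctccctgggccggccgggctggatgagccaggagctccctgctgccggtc
EREG: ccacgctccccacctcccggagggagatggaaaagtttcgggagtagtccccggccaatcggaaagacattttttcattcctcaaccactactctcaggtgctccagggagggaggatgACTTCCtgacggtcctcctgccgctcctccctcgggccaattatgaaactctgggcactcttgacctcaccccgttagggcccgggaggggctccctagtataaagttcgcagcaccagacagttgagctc
UCN2: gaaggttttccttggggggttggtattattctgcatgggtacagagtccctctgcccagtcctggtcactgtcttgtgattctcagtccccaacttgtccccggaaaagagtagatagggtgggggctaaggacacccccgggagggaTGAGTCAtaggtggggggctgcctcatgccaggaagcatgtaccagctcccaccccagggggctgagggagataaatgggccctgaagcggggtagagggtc
IL11: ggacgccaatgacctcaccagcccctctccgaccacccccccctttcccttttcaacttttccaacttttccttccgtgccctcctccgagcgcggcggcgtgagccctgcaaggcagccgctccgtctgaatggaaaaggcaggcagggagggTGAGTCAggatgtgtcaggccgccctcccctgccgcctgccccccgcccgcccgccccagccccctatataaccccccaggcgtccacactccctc

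The TGF-beta superfamily, whose ligands, antagonists and receptors shape invasion and matrix production, moved in both directions: of 28 members tested 5 were higher and 5 lower, where 2.62% of all features were higher and 4.21% lower, with a median log2 difference of 0.06 beside 0.01 over all features. Higher were the ligands INHBA, GDF15 (16.1 and 14.4 against 30.1 and 25.8 FPKM) and TGFB2, and the activin antagonists FST and FSTL3. Lower were CHRDL1, the coreceptor endoglin (ENG), the latent TGF-beta binding proteins LTBP1 and LTBP4, and the receptor TGFBR2. ENG was at 25.7 and 24.9 FPKM in WT and at 13.5 and 13.4 FPKM in ΔCRE cells (-0.86, SE 0.0621, limma, adjusted p = 0.000243) and was called in 18 of 18 alternative fits. The gene lies in the segment of chromosome 9 in which many genes were lower. TGFB1, ID1 and SMAD3, the most abundant members not called, had log2 differences of 0.08, -0.01 and -0.16. Without any 1 of the libraries of 24 h, between 6 and 7 members were called.

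Of 18 cytokines and chemokines tested, 3 were higher and 5 lower (median -0.13), where 2.62% of all features were higher and 4.21% lower. IL11, LIF (64.7 and 65.5 against 85.4 and 82.7 FPKM) and CCL20 were higher. CXCL1, IL6, IL8, IL1B and CSF1 were lower. CXCL1, a chemokine for neutrophils, was at 11.7 and 9.63 FPKM in WT and at 4.40 and 3.43 FPKM in ΔCRE cells (-1.25, SE 0.116, limma, adjusted p = 0.00103). IL8 (CXCL8), another neutrophil chemokine, was at 134 and 139 against 81.8 and 82.7 FPKM (-0.73), and the inflammatory cytokine IL6 at 9.79 and 7.87 against 5.22 and 4.48 FPKM (-0.74). IL11 and IL6, which signal through the same receptor chain gp130, thus differed in opposite directions. IL32, CSF2 and CXCL3, the most abundant members not called, differed by -0.08, 0.36 and -0.03. Between 6 and 7 members were called without any 1 of the libraries of 24 h. PTGS2 and PTGES, enzymes of prostaglandin E2 synthesis that were named after their values were seen, were higher: PTGS2 rose from 89.6 and 95.0 FPKM to 150 and 157 FPKM (0.73, SE 0.0787, limma, adjusted p = 0.00191) and PTGES from 39.6 and 35.5 FPKM to 59.99 and 60.1 FPKM. PTGES lies in the chromosome 9 segment and was 1 of only 3 genes called higher there.

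Among proteases that degrade the matrix and their inhibitors, 4 of 21 were higher and 5 lower (median -0.01), where 6.84% of all features were called in either direction, and between 8 and 9 were called without any 1 of the libraries of 24 h. The membrane-type collagenase activator MMP14 was at 126 and 118 FPKM in WT and at 72.7 and 66.5 FPKM in ΔCRE cells (-0.80, SE 0.0649, limma, adjusted p = 0.000429). The collagenase MMP13 was at 3.26 and 3.04 against 1.15 and 1.09 FPKM (-0.97), and the plasminogen activator PLAT at 25.2 and 23.9 against 12.2 and 10.9 FPKM (-1.02). The disintegrin proteases ADAM8 and ADAM15 were also lower. ADAM8 lies in the part of chromosome 10 in which most called genes were lower. MMP13, MMP14, PLAT and ADAM8 are labelled in the heatmap of the study, which was drawn from these samples. The called share of this list is thus not independent of the data. The collagenase MMP1, by contrast, rose from 43.6 and 43.7 FPKM to 73.4 and 72.7 FPKM (0.73, SE 0.0908, limma, adjusted p = 0.00342). The inhibitors TIMP1 (303 and 263 against 492 and 434 FPKM) and TIMP3 (8.08 and 8.21 against 14.7 and 15.3 FPKM) rose too, as did the urokinase receptor PLAUR (219 and 212 against 280 and 258 FPKM). MMP1 and the inhibitors thus stood on the side opposite to MMP13, MMP14 and PLAT. PLAU and TIMP2, abundant members not called, differed by -0.20 and -0.17.

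Matrix proteins were called in 11 of 28, 4 higher and 7 lower (median -0.0019), beside 6.84% of all features, and in between 6 and 8 without any 1 of the libraries of 24 h. FN1 (fibronectin) rose from 125 and 129 FPKM to 190 and 191 FPKM (0.59, SE 0.0615, limma, adjusted p = 0.0017), and COL7A1, LAMB1 and COL13A1 were also higher. The fibril-associated collagen COL12A1 fell from 2.16 and 2.18 FPKM to 0.650 and 0.696 FPKM, and COL27A1 from 3.39 and 3.12 FPKM to 1.73 and 1.40 FPKM. CYR61, a matricellular protein induced by YAP, was at 349 and 324 against 210 and 197 FPKM (-0.72, SE 0.0584, limma, adjusted p = 0.000423). Its family member CTGF, also a YAP target, was at 89.9 and 89.0 against 89.7 and 89.3 FPKM (0.00, limma, adjusted p = 0.994). THBS1, TNC, COL18A1 and LOXL2 completed the lower genes. COL12A1 and COL27A1 are labelled in the heatmap of the study, which was drawn from these samples. COL13A1 lies in the part of chromosome 10 in which most called genes were higher. Of 14 integrins and syndecans, 1 was higher and 1 lower, and 1 to 2 were called without any 1 of the libraries of 24 h. ITGB4, the partner of laminin-binding integrin α6, fell from 9.998 and 10.2 FPKM to 5.06 and 4.71 FPKM (-0.92, SE 0.0780, limma, adjusted p = 0.000583), and the collagen receptor subunit ITGA2 rose from 68.8 and 75.0 FPKM to 86.0 and 94.5 FPKM (0.32, limma, adjusted p = 0.0258). ITGA2 lost its call with only the 4 libraries of 24 h (limma, adjusted p = 0.0935), after rescaling to TPM (0.0689) or quantile normalization (0.0583), and without WT 24 h replicate 1 (0.178), WT 24 h replicate 2 (0.0567) or ΔCRE 24 h replicate 2 (0.141). Of 28 genes of cell-cell adhesion, CDH4 and L1CAM were higher and CDH11, CLDN7, CLDN1 and ICAM1 lower, and the catenins CTNNA1 and CTNNB1, which link cadherins to actin, differed by 0.18 and 0.15 and were not called. Without any 1 of the libraries of 24 h, between 2 and 3 of these 28 were called.

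In the angiogenesis list 5 of 25 genes were higher and 6 lower (median -0.19), where 2.62% of all features were higher and 4.21% lower, and between 4 and 5 were called without any 1 of the libraries of 24 h. EGFL7, a secreted endothelial factor, fell from 34.1 and 30.3 FPKM to 15.6 and 12.9 FPKM (-1.13, SE 0.105, limma, adjusted p = 0.00103). ROBO4, an endothelial guidance receptor, fell from 10.2 and 9.44 FPKM to 5.63 and 5.76 FPKM. EGFL7, ENG and NOTCH1, 3 of the 6 lower genes, lie in the chromosome 9 segment. The Notch ligand JAG1 rose from 34.9 and 36.2 FPKM to 58.7 and 59.1 FPKM (0.71, SE 0.0558, limma, adjusted p = 0.000366), and EFNB2, ANGPTL4, NOS3 and NRP1 were also higher. Of 27 axon guidance genes, EFNB2 and SEMA7A were higher and NEO1, ROBO4, SEMA4B and RGMB lower, and between 2 and 3 were called without any 1 of the libraries of 24 h. The 16 genes labelled in the heatmap of the study include several of those above: 15 were tested and 13 of them were lower, but the study picked them on these samples, so they are not independent evidence of a direction. The 2 tested genes not called were SCARF1 and RAPGEF3, with log2 differences of -0.55 and -0.28. Lists above that hold genes of that heatmap, among them proteases, matrix proteins and angiogenesis, have called shares that are not independent of these samples.

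Of 34 interferon-stimulated genes tested, 15 were called lower and 0 higher by limma, where 4.21% of all features were called lower. At an unadjusted p under 0.05 (limma) 20 of the 34 were lower and 0 higher, beside 2556 of all 11324 features in either direction. The median log2 difference of the 34 was -0.31. The antiviral effectors IFIT3 (16.9 and 16.9 against 8.01 and 8.06 FPKM), IFIT2 and IFIT1 were at 44.8% to 47.5% of the WT level. OAS1, an RNA sensor that activates RNase L, was at 6.19 and 4.58 against 2.53 and 2.29 FPKM (-0.89, SE 0.119, limma, adjusted p = 0.00488). ISG15, a ubiquitin-like modifier, was at 141 and 142 against 106 and 89.2 FPKM (-0.54, SE 0.0773, limma, adjusted p = 0.00615). The others were IFI44, ISG20, DHX58, OAS3, OASL, DTX3L, UBE2L6, IFIT5, USP18 and DDX58. The 4 IFIT genes lie in the chromosome 10 segment, and 11 of the 30 members outside the segments were lower (median -0.26). IRF9, a factor that transmits the interferon signal, and SP100 differed by -0.20 and -0.09 and were not called. Between 6 and 8 members were called without any 1 of the libraries of 24 h. Of 20 genes of MHC class I presentation, HLA-B and the immunoproteasome subunit PSMB8 were lower (-0.31 and -0.27), and B2M was at 507 and 570 against 522 and 545 FPKM. At most 1 of the 20 was called without any 1 of the libraries of 24 h.

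Feedback genes of the MAP kinase pathway and immediate early factors were called in 9 of 27, with 7 higher and 2 lower (median 0.11). Of all features, 2.62% were called higher and 4.21% lower. At an unadjusted p under 0.05 (limma) 10 of the 27 were higher and 6 lower, beside 2556 of all 11324 features in either direction. EGR1, a zinc finger immediate early factor, was at 17.7 and 17.9 FPKM in WT and at 29.1 and 27.1 FPKM in ΔCRE cells (0.63, SE 0.0584, limma, adjusted p = 0.00103). DUSP6, a phosphatase that inactivates ERK, was at 82.6 and 84.9 against 117 and 114 FPKM (0.46, SE 0.0534, limma, adjusted p = 0.00244). DUSP10, IER3, PHLDA1, SPRY2 and SPRY4 were also higher, while the AP-1 subunit FOSL2 and DUSP5 were lower. DUSP5 lies in the part of chromosome 10 in which most called genes were lower. FOSL1, the abundant AP-1 subunit of these cells, was at 181 and 165 against 151 and 137 FPKM and was not called (-0.26, limma, adjusted p = 0.0593). The count was between 2 and 4 without any 1 of the libraries of 24 h.

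The metabolic and proliferation lists are to be read beside the 6.84% of all features that were called. Their counts at an unadjusted p under 0.05 (limma) are to be read beside 2556 of all 11324 features. In cholesterol synthesis 4 of 29 were higher and 0 lower by limma (14 higher and 2 lower at an unadjusted p under 0.05, median 0.16): HMGCS1, which makes the precursor HMG-CoA, and the isomerase IDI1 were among them, with log2 differences of 0.41 and 0.34. Without any 1 of the libraries of 24 h, at most 2 of them were called. Of 43 replication genes CCNE2, POLE2 and RRM2 were higher, by 0.42, 0.37 and 0.29, a called share of 6.98% that is close to that of all features. Of 41 mitosis genes, CDKN3, CDK1, CENPF and AURKA were higher and AURKB and BUB3 lower, with CDK1, AURKB and BUB3 inside the segments. Among the 21 NRF2 targets tested, EPHX1, FTH1 and NQO1 were higher by 0.40, 0.26 and 0.24. For replication, mitosis and NRF2 targets the counts without any 1 of the libraries of 24 h were at most 2. In glycolysis and the hypoxia response 5 of 35 were called, of which BNIP3, PGAM1, HK1 and P4HA1 lie in the chromosome 10 segment and ANGPTL4 does not (2 to 4 called without any 1 of the libraries of 24 h). DDIT4, an inhibitor of mTOR signalling, was higher by 0.56 and was the only call among 35 genes of ER stress and ATF4. Of 32 actin genes, VCL (vinculin) and MYL12A were higher and TPM2 and MSN lower (1 to 2 called without any 1 of those libraries). DDIT4 and VCL also lie in the chromosome 10 segment. None of 44 subunits of oxidative phosphorylation was called by limma (8 at an unadjusted p under 0.05). Of 12 genes of the epithelial-mesenchymal transition, FN1 and SNAI2 were higher and KRT19 lower (106 and 98.3 against 82.8 and 70.9 FPKM, most of the luminal marker sum), and VIM (vimentin) was at 1614 and 1597 against 1803 and 1728 FPKM and was not called. Of these 12, 1 to 2 were called without any 1 of the libraries of 24 h.

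**Figure D1:**
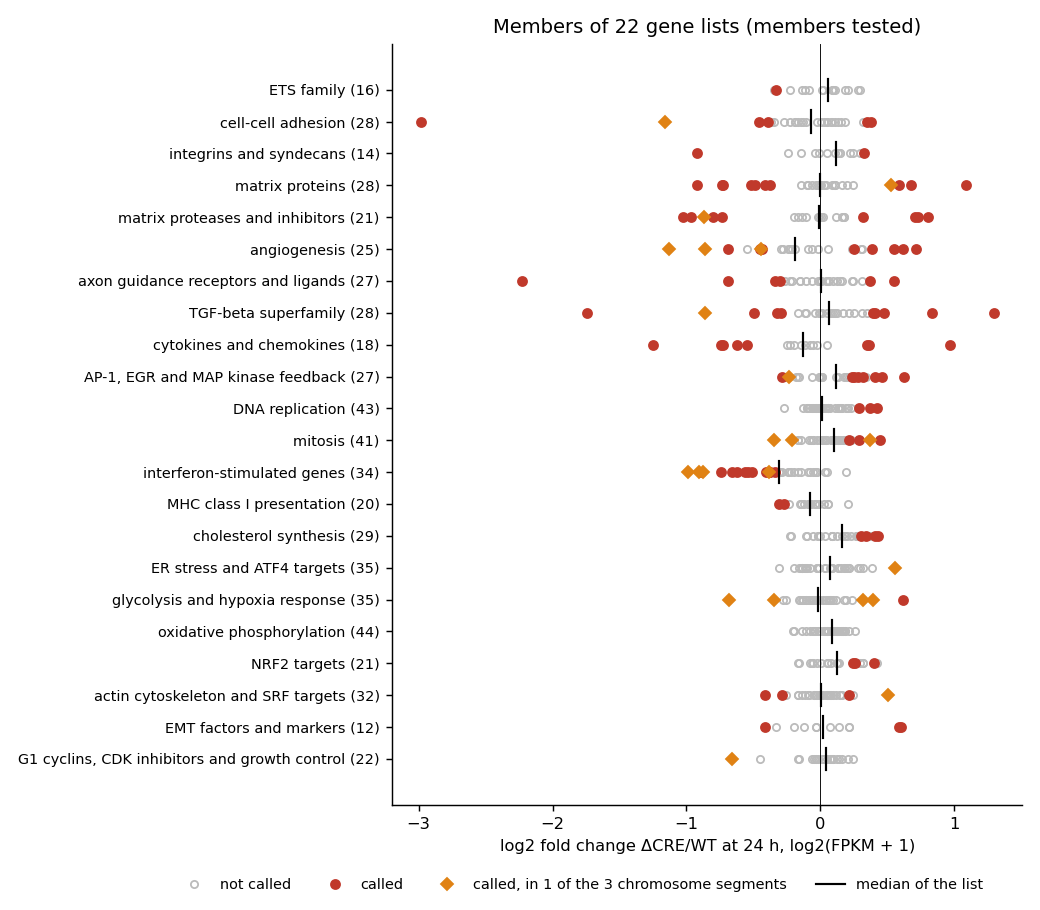
Log2 difference between ΔCRE and WT cells at 24 h for each tested member of 22 gene lists, with the number tested beside the name of the list. Open grey points were not called, red points were called, orange diamonds were called and lie in 1 of the 3 chromosome segments, and the vertical bar is the median of the list. Interferon-stimulated genes have called members on the lower side only (15 of 34), while the TGF-beta superfamily has 5 on each side.

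Called genes were not spread evenly over the chromosomes. Chromosomes 9, 10 and 17 held 69, 69 and 86 of the 477 lower genes, and chromosome 10 held 72 of the 297 higher genes. The segments below were outlined after the values were seen, and no test was run on them. On chromosome 9 from 120 Mb, 63 of 202 genes were lower and 3 higher (median -0.26). On chromosome 17 below 20 Mb, 68 of 192 were lower and 0 higher by limma (130 lower and 0 higher at an unadjusted p under 0.05, median -0.25). On chromosome 10 the direction changed along the long arm: between 50 and 80 Mb 57 of 90 genes were higher and 1 lower (median 0.38), and from 90 Mb 62 of 200 were lower and 1 higher (median -0.26). Medians at 6 h, measured in other libraries of the same cells, were -0.24, -0.22, 0.36 and -0.24 in these stretches. Between 80 and 90 Mb of chromosome 10 the directions were mixed. There 8 of 22 genes were higher and 3 lower (median -0.17 at 24 h and -0.19 at 6 h). The segments (chromosome 10 from 50 Mb) together held 706 tested genes, 23.2% of all higher and 41.3% of all lower genes. Outside them 228 of 10618 genes were higher and 280 lower, and 11 of the 13 higher and 28 of the 30 lower genes that differed at least 2-fold remained. Other runs of a single direction lay outside the segments, and those given were picked after their values were seen. On chromosome 1 from 210 Mb 21 of 151 genes were higher and 0 lower (77 and 2 at an unadjusted p under 0.05, limma). On chromosome 14 between 50 and 60 Mb 10 of 61 were higher and 0 lower (31 and 0). On chromosome 8 between 10 and 30 Mb 13 of 75 were lower and 0 higher (24 and 0). Over all chromosomes, 2556 of 11324 features had an unadjusted p under 0.05 (limma). The blocks of chromosome 8 from 70 to 110 Mb and of chromosome 5 from 60 to 90 Mb also held higher and no lower calls. The called share of such a block was 5.56% to 14.6%, beside 2.62% of all features called higher. Blocks elsewhere, such as those of chromosome 12 from 60 to 90 Mb, also held higher calls only. Whether the DNA of these segments and runs is present in the same number of copies in WT and ΔCRE cells was not tested.

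**Figure D2:**
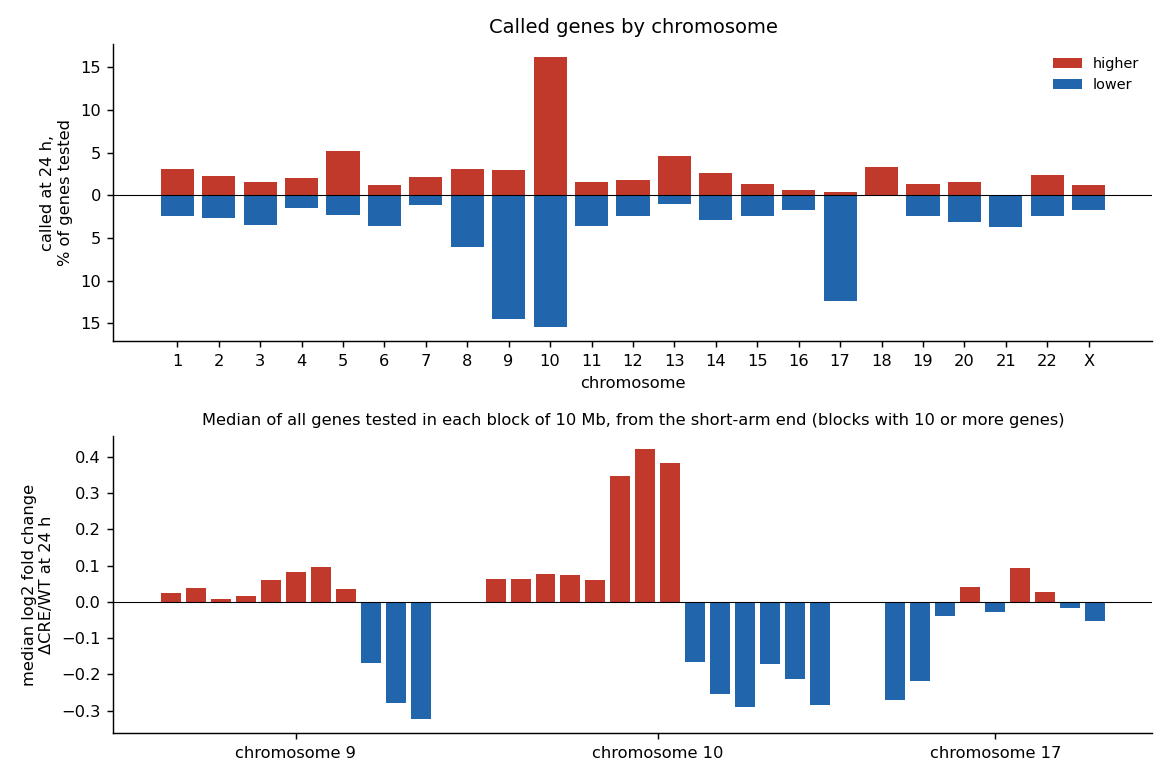
Upper plot: percent of the tested genes of each chromosome called higher (upward bars) or lower (downward bars) in ΔCRE cells at 24 h. Lower plot: median log2 difference over all tested genes in consecutive blocks of 10 Mb along chromosomes 9, 10 and 17, for blocks with at least 10 genes. Chromosome 10 stands out in both directions, with 16.1% of its genes higher and 15.5% lower.

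Much of what differed at 24 h also differed at 6 h, in libraries other than those of 24 h. Both comparisons come from the same fit and share its estimate of the spread, so their calls are not independent. At 6 h 1136 features (10%) were called, and 506 were called at both times, 65.4% of the 24 h calls and 44.5% of the 6 h calls. Of these 506, 503 had the same direction. The exceptions were ITGBL1, an integrin-like protein that was higher at 6 h (0.30) and lower at 24 h (-0.31), PRSS3, a trypsin that was lower at 6 h (-0.62) and higher at 24 h (0.38), and the small RNA entry SNORA10. A further 268 features were called at 24 h and not at 6 h, 119 higher and 149 lower, but only 2 of them, AKAP12 and FN1, also passed the test of a difference between the times. CXCL1, IL6, IL8, MMP1, TIMP1 and PTGS2, for example, had log2 differences at 24 h that were larger in size than at 6 h, with adjusted p-values for the change between 0.0591 (PTGS2) and 0.399 (CXCL1 and IL6).

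The test of 24 h against 6 h called 11 features (0.0971%), 9 with a positive and 2 with a negative change. The lowest adjusted p was that of IL1B, the inflammatory cytokine interleukin 1 beta: it was at 167 and 167 FPKM in WT and at 52.8 and 47.1 FPKM in ΔCRE cells at 6 h, and at 326 and 330 against 220 and 206 FPKM at 24 h. Its difference shrank from -1.72 to -0.62 on the log2 scale, a change of 1.10 (SE 0.0924, limma, adjusted p = 0.0191). ETS1 behaved alike in size, with a change of 0.84 (SE 0.0872, limma, adjusted p = 0.0254). G0S2, an inhibitor of lipolysis, was at 354 and 345 against 168 and 160 FPKM at 6 h and at 349 and 342 against 324 and 289 FPKM at 24 h, a change of 0.91 (SE 0.0908). LPXN, an adhesion adaptor, was lower in ΔCRE cells at 6 h (-0.44) and not called at 24 h (0.23). These genes thus had a deficit at 6 h that was smaller or gone at 24 h.

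INHBA, FN1 and AKAP12 differed in another manner, with a gain at 24 h that was small or not called at 6 h. INHBA was at 16.6 and 16.3 against 22.9 and 23.03 FPKM at 6 h, so that WT cells lost INHBA RNA between the times while ΔCRE cells had 28.3 and 25.9 FPKM at 24 h (change 0.84, SE 0.0875, limma, adjusted p = 0.0254). FN1 was at 77.9 and 79.2 against 76.2 and 68.2 FPKM at 6 h (change 0.71, SE 0.0869, limma, adjusted p = 0.0328). AKAP12, a scaffold of protein kinases A and C, was at 27.2 and 26.6 against 28.4 and 26.9 FPKM at 6 h and at 12.8 and 13.4 against 22.0 and 22.3 FPKM at 24 h. F3, which encodes tissue factor, went the other way, from 103 and 101 against 187 and 205 FPKM at 6 h to 38.6 and 38.4 against 44.7 and 45.3 FPKM at 24 h (change -0.71, SE 0.0806, limma, adjusted p = 0.0328). The 11 calls depended on every library. Of these 11, 2 were still called without WT 24 h replicate 1, 2 without WT 24 h replicate 2, 3 without ΔCRE 24 h replicate 1 and 5 without ΔCRE 24 h replicate 2. Counted over all features, limma called 0 without WT 6 h replicate 1 (666 at an unadjusted p under 0.05) or without ΔCRE 6 h replicate 2 (824), 2 without ΔCRE 6 h replicate 1 and 4 without WT 6 h replicate 2.

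**Figure D3:**
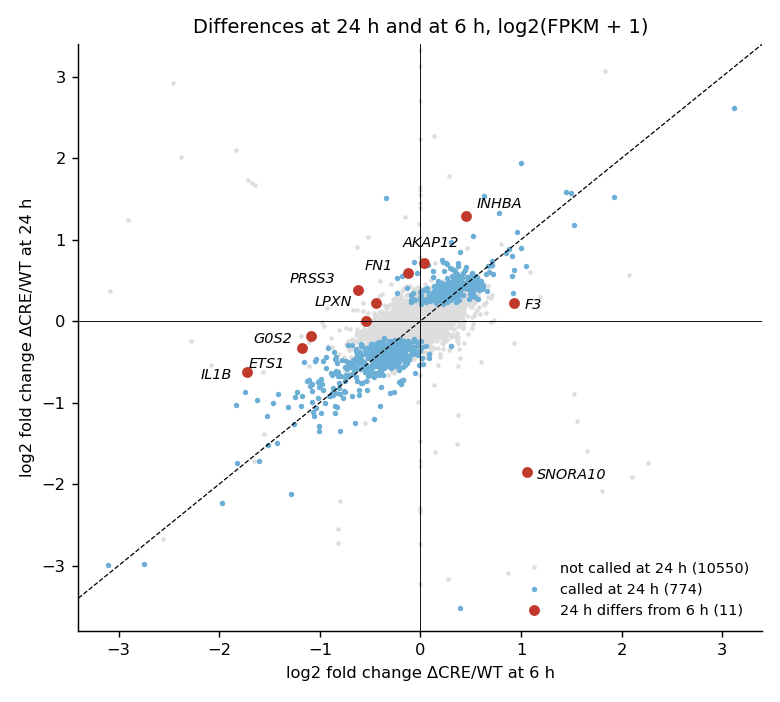
Log2 difference between ΔCRE and WT cells at 24 h (vertical) against that at 6 h (horizontal) for each tested feature. Blue points are the 774 called at 24 h and red points the 11 whose difference changed between the times, the dashed line marks equal differences, and 20 features lie outside the axes. IL1B, G0S2 and ETS1 lie left of zero and above the dashed line, while INHBA, FN1 and AKAP12 lie near the vertical axis and above zero.

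**Figure D4:**
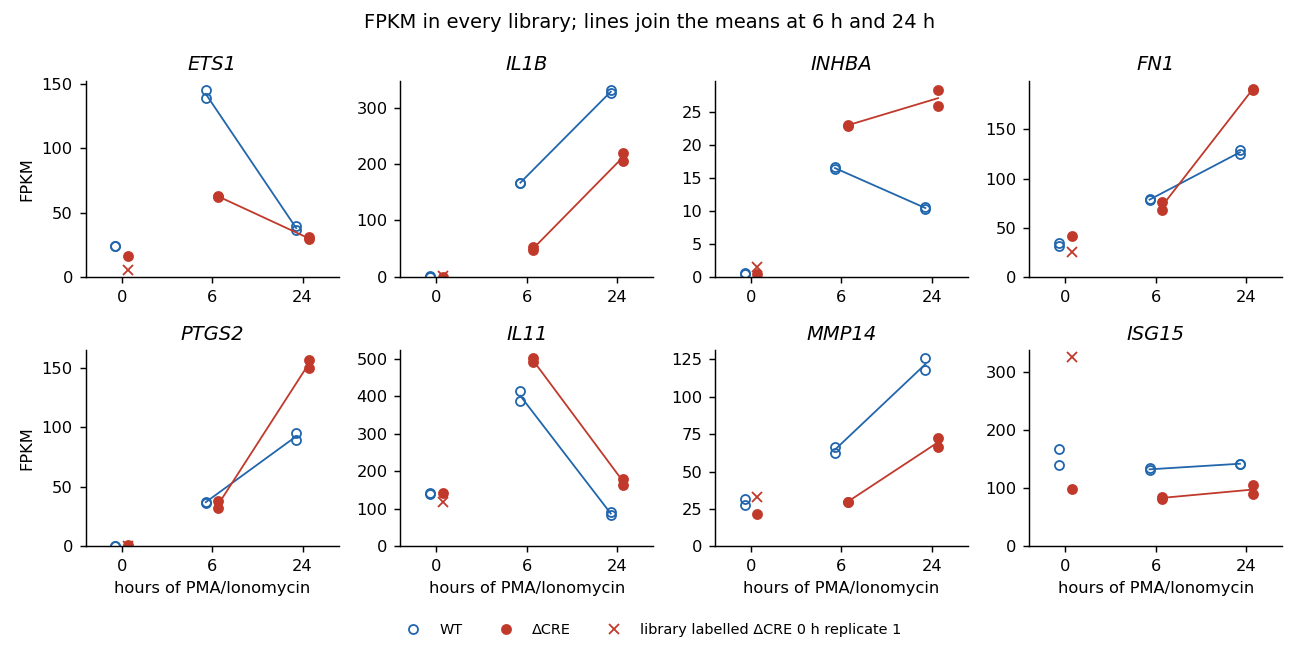
FPKM of 8 genes in each of the 12 libraries over the hours of PMA/Ionomycin, with open points for WT, filled points for ΔCRE and a cross for the library labelled ΔCRE 0 h replicate 1. Lines join group means at 6 h and 24 h. ETS1 in WT falls from 139 and 145 FPKM to 36.2 and 39.7 FPKM, and PTGS2 separates the genotypes at 24 h, with 150 and 157 FPKM in ΔCRE cells.

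Genes that PMA/Ionomycin itself induces early in WT cells were frequent on both sides. Between 0 h and 6 h of stimulation, in WT libraries that the 24 h comparison does not contain, 2.91% of all tested features rose at least 2-fold on the log2(FPKM + 1) scale (no test was run on this share). The share was 12.1% among the 297 higher genes (36 genes) and 10.5% among the 477 lower genes (50 genes). Outside the chromosome segments it was 15.4% of the higher, 15.7% of the lower and 2.97% of all tested genes. IL8, IL1B and CXCL1 with a log2 induction of 9.25, 6.72 and 5.04 were lower in ΔCRE cells at 24 h, and PTGS2 and INHBA with 4.62 and 3.53 were higher. Genes that fell at least 2-fold in WT cells by 6 h made up 2.36% of the higher and 2.52% of the lower genes, beside 0.998% of all tested genes.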

How the data were processed

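RNA-sequencing of WT and ΔCRE MDA-MB-231 cells (12 libraries, 2 replicates per genotype and time) was analysed from the FPKM table deposited by the authors, who aligned reads to hg19 and estimated FPKM (fragments scaled to length and library size) with the Cufflinks suite. Unused per-sample columns numbered 0. Values were taken as log2(FPKM + 1), so fold changes of low genes are understated. Features with a mean of at least 1 FPKM over the 4 libraries of 24 h were fitted with limma 3.58.1 (R 4.3.3; lmFit, contrasts, eBayes with trend) on the 8 libraries of 6 h and 24 h (4 groups, 4 residual degrees of freedom). A feature was called at a Benjamini-Hochberg adjusted p under 0.05, two-sided. A second contrast tested 24 h against 6 h. The 24 h and 6 h comparisons share no library but share the estimate of the spread. The steps were tested on simulated data.

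Named were ETS1 and the 15 lowest and 15 highest called genes, without small RNA entries. Groups that do not overlap were required of the 15 genes at each end. Up to 6 genes at each end of the calls for 24 h against 6 h were named too. Each list added up to 4 called and 3 abundant uncalled members. The members and lists were chosen with earlier results of these data known, and genes outside this rule are given as members of a list or as named after their values were seen. Alternatives changed the libraries, pseudocount (0.1), filter (none, or a mean of 5), normalization, spread estimate and replicate block. Promoter letters came from RefSeq (GRCh38.p14). Only 78.6% of the tested features matched a promoter, so a comparison of motif shares between called and other genes is void and was not made. FPKM keeps no read numbers, so no counting intervals could be given. A few genes that the rule names are not reported here.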

Additional observations from a re-analysis of the deposited data

Results flagged for a closer look

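The difference between ΔCRE and WT cells changed between 6 h and 24 h in 11 features in a test of the difference itself (limma, adjusted p under 0.05). Values are the log2 difference between ΔCRE and WT at 24 h minus that at 6 h. Of the 10 given here, the change was 1.10 for IL1B, 1.004 for PRSS3, 0.91 for G0S2, 0.84 for ETS1, 0.84 for INHBA, 0.71 for FN1, 0.68 for AKAP12 and 0.66 for LPXN. It was -0.71 for F3 and -2.90 for SNORA10, a small nucleolar RNA entry at 25.8 and 38.9 FPKM in WT and 8.67 and 7.55 FPKM in ΔCRE cells at 24 h.

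In a library that the comparisons do not use, labelled ΔCRE 0 h replicate 1, REG1A, a secreted protein of pancreas and intestine, was at 4722 FPKM.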

How the results depend on the processing

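The 774 calls at 24 h became 324 with only the 4 libraries of 24 h, 19 with all 12 libraries, 43 with a fold change of at least 2 added, 2556 at an unadjusted p under 0.05 and 508 with the 3 chromosome segments left out (chosen after seeing the data). Leaving out 1 library gave 184 to 743 calls. Without trend, with other pseudocounts, filters, normalizations or 11 libraries the count was 688 to 999. The 11 genes differing between 24 h and 6 h became 0 with all 12 libraries, with no filter and without trend (82, 1296 and 868 at an unadjusted p under 0.05, limma), 21 with 11 libraries, 29 with a pseudocount of 0.1, 22 with a mean of at least 5 FPKM, 17 after rescaling to TPM, 3 with a fold change of at least 2 and 834 at an unadjusted p under 0.05. Leaving out 1 library gave 0 to 16. ETS1 at 24 h kept its log2 difference of -0.33 and lost its call with only the 4 libraries of 24 h (limma, adjusted p = 0.0768) and with all 12 (adjusted p = 0.99996), and ranged from -0.39 to -0.26 without 1 library. The fit of all 12 libraries includes the outlying library at 0 h. The cause of the other changes was not tested. No result reversed its direction, and of 97 named genes 18 kept their side of the threshold with all 12 libraries and 69 with the 4 of 24 h.

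With the replicate number as a block the calls at 24 h rose to 1335 and those for 24 h against 6 h to 23, and with the block and only the 4 libraries of 24 h (chosen after seeing the data) the calls were 1947. Correlations of same-numbered deviations between groups ran from -0.014 to 0.112, and that of WT 24 h with ΔCRE 24 h was 0.108. Not all exceeded 0.1, so the main fit did not take the numbers to pair the samples. These values do not show that the 24 h replicates are unpaired.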
